A study of Mus musculus with 242 samples.

Results

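Glul, Slc1a2, Lgr5, Axin2, Lect2, Rhbg, Oat, Slc13a3, Tbx3 and Rnf43 are 10 genes of the hepatocytes around the central vein of the mouse liver that depend on Wnt signalling. They were chosen by name, as known members of this pericentral program, with earlier results of these data known. They make up 10 of the 18193 genes measured. For each gene the probe set with the highest mean signal over all arrays stood for the gene. Its signal was followed in 46 groups of exposed mice against control mice and over 5 dose series.

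Blood enters the liver lobule at the portal triads and leaves at the central vein, and hepatocytes along that path hold different enzymes. Endothelial cells of the central vein release Wnt ligands and R-spondin, which stabilise beta-catenin in the neighbouring hepatocytes, and beta-catenin with its partners of the TCF/LEF family then switches on the pericentral genes. Part of this program takes up and disposes of ammonia as glutamine, and another part (Axin2, Rnf43, Lgr5) tunes the Wnt signal itself.

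Livers of adult female B6C3F1 mice (the hybrid of C57BL/6 and C3H), 18 weeks old after 13 weeks of exposure, were measured on 242 single-colour Affymetrix arrays, 1 array per mouse. The study asked which liver transcripts after this exposure could predict liver tumours in female mice. Run codes in the labels divide the arrays into 4 runs (A to D), and each treated group was set against the control mice of its vehicle and run. There were 183 arrays in 46 treated groups and 59 arrays in 14 control groups, with 3 to 5 mice per group.

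In run A, 2,2-bis(bromomethyl)-1,3-propanediol (1250 ppm), 4-nitroanthranilic acid (10000 ppm), diazinon (200 ppm) and malathion (14800 ppm) were given in chow. Also in run A, 1,2-dibromoethane (62 mg/kg), coumarin (200 mg/kg) and benzene (100 mg/kg) were given by gavage in corn oil, and N-methylolacrylamide (50 mg/kg) and 2-chloromethylpyridine hydrochloride (250 mg/kg) by gavage in water. In run B, trichlorofluoromethane (3925 mg/kg) and iodoform (93 mg/kg) were given in corn oil, and 1-amino-2,4-dibromoanthraquinone (20000 ppm) and tris(2,3-dibromopropyl)phosphate (1000 ppm) in chow. Tetrafluoroethylene (1250 ppm) and the compound labelled tetrafluororethane (50000 ppm) were inhaled in run B. Run C held 2,3-benzofuran (240 mg/kg in corn oil) and, in chow, 1,5-naphthalenediamine (2000 ppm), N-(1-naphthyl)ethylenediamine dihydrochloride (2000 ppm) and pentachloronitrobenzene (8187 ppm). Run D held inhaled ethylene oxide (100 ppm), vanadium pentoxide (2 mg/m3) and the 5 dose series. These were 1,4-dichlorobenzene (100, 300, 400, 500 and 600 mg/kg) and 1,2,3-trichloropropane (2, 6, 20, 40 and 60 mg/kg) in corn oil, and, inhaled, methylene chloride (100, 500, 2000, 3000 and 4000 ppm), naphthalene (0.5, 3, 10, 20 and 30 ppm) and propylene glycol mono-t-butyl ether (25, 75, 300, 800 and 1200 ppm). Control mice received the vehicle alone, which was chow, corn oil, water or air.

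The tissue label was borne out by its markers: albumin (Alb) ran from 33529 to 116971 signal units over the 242 arrays. Signals are linear intensities with a trimmed mean of 500 on every array, after 2 arrays that had been left at other scales were brought to it. RNA integrity numbers, where 10 is intact RNA, lay between 4.7 and 7.8 for run A and between 7.1 and 9.4 over the other runs. The labels do not tie treated groups to control sets within a vehicle and run, so the animal numbers were used for that. The number of arrays limits the precision, and in whole liver fewer pericentral cells and less RNA per cell cannot be told apart.

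All 10 members were measured, and none of the 10 probe sets used fell below 17.3, the constant added before taking logarithms, on any array. Some of the members' other probe sets did. Oat, the mitochondrial enzyme that breaks down ornithine, had a median of 26505 over the 242 arrays (4960 to 54085). Glul, which makes glutamine from glutamate and ammonia, had a median of 17528 (3338 to 24575). Lect2, a secreted liver protein, lay at 7802 (2047 to 14413), and Slc13a3, a dicarboxylate carrier, at 1269 (511 to 4845). The glutamate carrier Slc1a2 lay at 709 (139 to 2713), the ammonia channel Rhbg at 590 (29.1 to 1944) and the transcription factor Tbx3 at 517 (168 to 1591). The 3 members of the Wnt feedback machinery had medians of 321 for Axin2, 316 for the R-spondin receptor Lgr5 and 264 for the ubiquitin ligase Rnf43. Their mean log2 signals lay at percentiles 59.2, 59.7 and 56.8 of all genes. Probe sets differ in brightness, so these values do not rank the transcripts.

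The genes lie on 8 chromosomes of GRCm38.p6, by RefSeq. Of the ammonia and glutamate group, Glul spans chr1:153899929-153909723, Oat chr7:132557475-132576398, Slc1a2 chr2:102658239-102790784 and Rhbg chr3:88242874-88254739. Of the Wnt machinery, Lgr5 spans chr10:115450314-115587780, Axin2 chr11:108917828-108950783 and Rnf43 chr11:87663087-87735539. Tbx3 spans chr5:119670534-119684724, Lect2 chr13:56529734-56548559 and Slc13a3 chr2:165405295-165473197.

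Glul was steadier between mice than most genes. Its standard deviation within groups was 0.21 on the log2 scale, at percentile 8.10 of all genes, against a median over all genes of 0.45. The SDs of the other members were between 0.28 for Oat and 0.48 for Slc1a2.

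A member was called when the limma adjusted p over all genes was under 0.05 and the fold at least 1.5. Of 460 pairs of a member and a treated group, 19 were called, 3 higher and 16 lower in treated mice, or 4.13% of the pairs. Over all genes and treated groups the share was 0.751% (0.331% higher and 0.420% lower). These shares are not like for like. The members were chosen with earlier results of these data known. All had mean log2 signals at percentile 56.8 of all genes or above, while folds of dim genes are understated. No share for genes of like signal is given. Lgr5 was called in 6 groups, always lower, and Rhbg in 5 groups, 3 higher and 2 lower. Slc1a2 fell in 3 groups, Oat in 2, and Glul, Lect2 and Slc13a3 in 1 group each. Axin2, Tbx3 and Rnf43 were called in 0 treated groups by limma, and had an unadjusted p under 0.05 in 3, 11 and 2 of the 46 groups. No treated group overlapped its controls in any of the 19 pairs. Of all 460 pairs, called or not, 54 were without overlap, and the share over all genes was not computed. The calls lay in 12 of the 46 groups and came from 7 chemicals. When each comparison was fitted to its own 2 groups alone 5 pairs were called, among them Glul, Slc1a2 and Oat with malathion and Lgr5 at 4000 ppm methylene chloride. With the mean of all probe sets of a gene, which for Lgr5 brings in a dim second one, no Lgr5 call was kept.

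**Figure D1:**
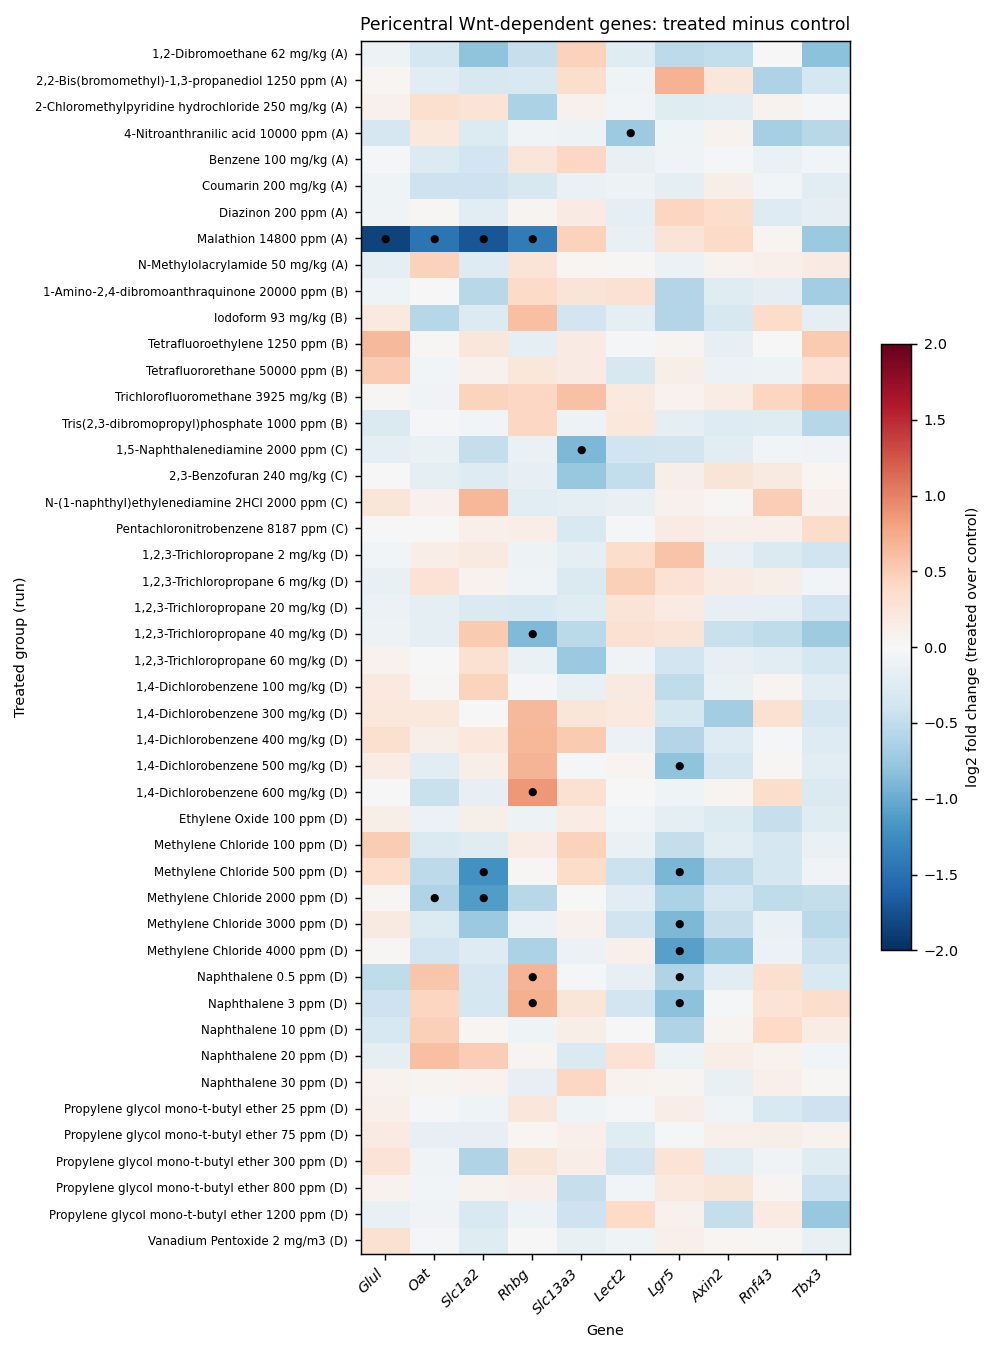
Log2 fold change, treated over control, of the 10 genes (columns) in the 46 treated groups (rows, with dose and run in brackets), with a dot on each of the 19 calls. Malathion shows the darkest row, with Glul, Oat, Slc1a2 and Rhbg lower and Lgr5, Axin2 and Slc13a3 not called.

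The same test between control sets of 1 vehicle and run gave 0 member calls in 5 comparisons (limma), with 4 of the 50 tests at an unadjusted p under 0.05. The differences between control sets ran from -0.49 to 0.67 on the log2 scale. Over all genes 0.00% were called in 3 of these comparisons, and 0.0879% and 0.126% in the other 2, both with the air controls of naphthalene.

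Glul, Slc1a2, Oat and Rhbg, which handle glutamate, ammonia and ornithine, fell in mice fed malathion, an organophosphorus insecticide. Glul had signals of 4772, 3338, 5285, 5649 and 5496 in the 5 malathion livers, against 17552, 17660, 14399 and 18624 in the 4 chow controls. Every malathion liver was below every control. The malathion mean of 4908 ± 938 (SD, n = 5) was the lowest of the 60 group means, and the next lowest was 12206 ± 2679 (1,5-naphthalenediamine, SD, n = 3). Glul fell 3.61-fold in limma (log2 -1.85 ± 0.18 (SE), adjusted p = 9.82e-10).

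Slc1a2, which carries glutamate into pericentral hepatocytes, had 636, 403, 524, 498 and 687 in malathion livers, against 1692, 1486, 2129 and 2262 in chow controls. The highest malathion liver was below the lowest control. Slc1a2 fell 3.28-fold (log2 -1.71 ± 0.35, limma adjusted p = 0.0013). Oat, which turns ornithine toward glutamate, had 9840, 7350, 9494, 6116 and 11620 in malathion livers, against 24683, 22616, 22117 and 25426 in controls. The groups did not overlap, and Oat fell 2.75-fold (log2 -1.46 ± 0.28, limma adjusted p = 5.32e-04).

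Rhbg, which lets ammonia through the cell membrane, had 285, 29.1, 337, 158 and 135 in malathion livers, against 486, 390, 521 and 400 in controls. All malathion livers were below the controls, and replicate 2 was far below the others. Rhbg fell 2.65-fold (log2 -1.40 ± 0.36, limma adjusted p = 0.0114), but without malathion replicate 2 the call was lost (log2 -0.83, adjusted p = 0.119). Rhbg was also not called with the 2 groups fitted alone (adjusted p = 0.165).

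With 4 of 10 members called, the share of all genes called for malathion was 4.37%. The other 6 members were not called. Lgr5 had 397, 246, 275, 282 and 263 in malathion livers, against 237, 237, 258 and 276 in controls, and these ranges overlapped (log2 0.26 ± 0.27). Axin2 (log2 0.38 ± 0.26), Rnf43 (0.06 ± 0.27) and Lect2 (-0.15 ± 0.15) overlapped their controls as well. Tbx3 had 349 to 563 in malathion livers, against 808 to 997 in controls, without overlap, but missed the adjusted threshold (log2 -0.75 ± 0.30, adjusted p = 0.167). Slc13a3 had 1033 to 1500 in malathion livers, against 794 to 1017 in controls, without overlap (log2 0.47 ± 0.33, adjusted p = 0.533). The median change of the 10 members was -0.45, against -0.03 over all genes, and the changes ran from -1.85 to 0.47.

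**Figure D2:**
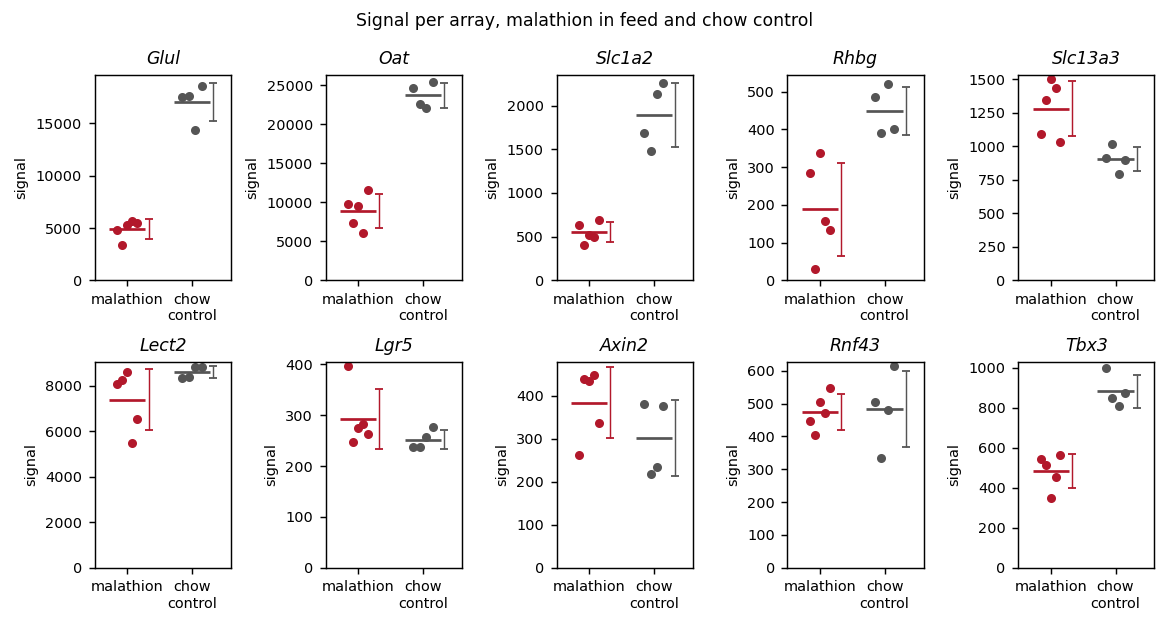
Signal of the 10 genes on each array (points), with the group mean (line) and SD (bar), in 5 livers of mice fed malathion (left, red) and 4 chow controls (right, grey). Glul, Oat, Slc1a2 and Rhbg lie wholly below the controls, and Lgr5, Axin2, Rnf43 and Lect2 overlap them.

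Run A held 2 run codes. Within the code that held 2 malathion and 3 control livers Glul differed by -2.07, and within the code that held 3 and 1 by -1.69 (log2). The same 2 values were -1.95 and -1.37 for Slc1a2, -1.50 and -1.36 for Oat, and -2.03 and -0.95 for Rhbg. RNA integrity moved with the exposure: it was 4.7 to 6.5 in 4 malathion livers (1 had no value), against 6.7 to 7.2 in controls. Without the 2 malathion livers under 5, all 4 calls held (Glul -1.96, Slc1a2 -1.82, Oat -1.43 and Rhbg -1.43 log2). With the integrity number as a covariate Glul (-1.79, adjusted p = 3.40e-05) and Rhbg (-2.04, 0.00908) stayed past the threshold, while Slc1a2 (-1.21, 0.145) and Oat (-1.13, 0.141) did not.

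A second Glul probe set differed by -2.15 between malathion and control means (log2), against -1.81 for the one used, and the groups did not overlap on either. Of the other 4 Slc1a2 probe sets, 2 differed by -1.68 and -1.90 without overlap. The remaining 2, which lay below the added constant on 52.1% and 50.0% of the arrays, overlapped.

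Among 10 measured genes of glutamine, glutamate and ornithine handling outside the 10 members, 2 fell and none rose with malathion. These were the aspartate aminotransferase Got1 (log2 -1.70 ± 0.38, limma adjusted p = 0.00342) and the glutamine carrier Slc38a3 (-0.61 ± 0.18, 0.0311). Of 10 other pericentral genes 1 rose, Cyp1a2 (0.64 ± 0.19, 0.0378), and of 9 periportal genes 1 rose, Cdh1, which encodes E-cadherin (1.15 ± 0.29, 0.00927). By limma 0 of 5 Wnt ligand genes, 0 of 9 receptors and 0 of 12 transducers were called, with 0, 2 and 5 of them at an unadjusted p under 0.05, and 1 of 8 other Wnt targets rose, Tnfrsf19 (0.93 ± 0.28, 0.0403). The medians were -0.24 for the glutamine list, -0.24 for the other pericentral genes and 0.15 for the periportal genes.

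Markers of other liver cells also moved. Of 7 endothelial markers Stab2, a scavenger receptor of the sinusoids, fell (-0.77 ± 0.16, adjusted p = 0.00125), and the summed endothelial signal was 6008 to 8281 in malathion livers, against 8052 to 10072 in controls. The sum of 5 Kupffer cell markers was 4719 to 15037 in malathion livers, against 10977 to 16915 in controls, with 0 markers called by limma and 1 at an unadjusted p under 0.05. The sum of 5 hepatocyte markers was 211570 to 360015 in malathion livers, against 242318 to 357030 in controls. The part of these shifts in the member calls was not tested.

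Diazinon, the other organophosphorus insecticide of the set, was given at 200 ppm rather than 14800 ppm. With it 0 of 10 members were called by limma and 0 had an unadjusted p under 0.05 (0.00% of all genes called), and the log2 changes were -0.07 ± 0.19 for Glul, -0.20 ± 0.37 for Slc1a2, 0.03 ± 0.29 for Oat and 0.05 ± 0.37 for Rhbg. Since the doses differ, no comparison was made.

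The regions just before the starts of these genes are shown because Glul, Slc1a2 and Oat fell together and because Wnt signalling acts through TCF/LEF sites. RefSeq promoter windows of 300 bases (250 before and 50 after the start, GRCm38.p6) were at hand for 7 members, in 8 windows. The windows of Lgr5, Rhbg and Tbx3 were not used here. The motif searched was CTTTGAT or CTTTGAA on both strands, whose reverse complements are ATCAAAG and TTCAAAG. It occurred in 2 of the 8 windows and in 8.65% of 32851 windows of the same length. A match is a description of letters and shows no binding. The Slc1a2 window (chr2:102706188-102706487, plus strand, at a start inside the gene's span of chr2:102658239-102790784) held ATCAAAG at position -207 relative to the start. The Lect2 window (chr13:56548489-56548788, minus strand) held it at position -32. The Glul window (chr1:153899679-153899978, plus strand) and the Oat window (chr7:132576349-132576648, minus strand) held no match. Capitals mark the matches.
Glul: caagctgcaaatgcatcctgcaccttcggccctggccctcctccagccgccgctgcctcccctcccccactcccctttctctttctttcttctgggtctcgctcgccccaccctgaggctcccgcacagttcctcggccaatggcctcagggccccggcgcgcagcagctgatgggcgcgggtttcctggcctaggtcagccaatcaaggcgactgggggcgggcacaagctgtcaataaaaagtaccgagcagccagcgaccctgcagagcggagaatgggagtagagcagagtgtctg
Slc1a2: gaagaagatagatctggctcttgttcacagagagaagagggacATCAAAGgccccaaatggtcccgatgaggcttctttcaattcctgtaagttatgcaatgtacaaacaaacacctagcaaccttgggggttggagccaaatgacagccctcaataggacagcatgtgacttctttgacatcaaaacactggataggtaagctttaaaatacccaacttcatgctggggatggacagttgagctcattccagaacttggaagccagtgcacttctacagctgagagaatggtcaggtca
Oat: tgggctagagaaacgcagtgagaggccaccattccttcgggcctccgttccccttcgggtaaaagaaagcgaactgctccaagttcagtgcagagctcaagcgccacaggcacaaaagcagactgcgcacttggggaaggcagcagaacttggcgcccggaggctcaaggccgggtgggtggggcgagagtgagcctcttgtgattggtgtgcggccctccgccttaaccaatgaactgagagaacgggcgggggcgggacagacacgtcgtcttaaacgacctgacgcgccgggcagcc
Lect2: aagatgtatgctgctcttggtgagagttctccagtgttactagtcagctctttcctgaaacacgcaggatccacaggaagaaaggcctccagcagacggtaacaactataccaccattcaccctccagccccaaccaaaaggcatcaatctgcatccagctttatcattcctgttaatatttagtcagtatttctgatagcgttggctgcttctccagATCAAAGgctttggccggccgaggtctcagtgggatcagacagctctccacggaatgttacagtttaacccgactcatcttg

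Methylene chloride, an inhaled solvent, lowered Lgr5, the receptor through which R-spondin raises the Wnt response. Lgr5 had 437, 457, 453, 536 and 369 in the 5 air controls and 310, 429, 281 and 265 at 100 ppm. It had 208, 212, 252 and 246 at 500 ppm and 209, 291, 272 and 378 at 2000 ppm. At 3000 ppm it had 232, 230, 213 and 258, and at 4000 ppm 225, 223, 181 and 185. Every liver at 500, 3000 and 4000 ppm was below every control, and the ranges overlapped at 100 and 2000 ppm.

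Lgr5 fell by 0.92 ± 0.19 (log2) at 500 ppm (limma adjusted p = 0.00552), by 0.89 ± 0.19 at 3000 ppm (adjusted p = 9.28e-04) and by 1.08 ± 0.19 at 4000 ppm (adjusted p = 1.99e-05). These 3 calls held when any 1 array of either group was left out. The share of all genes called was 0.726% at 500 ppm, 3.05% at 3000 ppm and 2.92% at 4000 ppm. At 100 ppm (log2 -0.48, adjusted p = 0.383) and 2000 ppm (-0.64, adjusted p = 0.0574) Lgr5 was not called. The trend, as the fitted change between control and 4000 ppm over equally spaced ranks, was -0.91 ± 0.16 (adjusted p = 1.82e-05, with 3.50% of all genes called). With the 5 dosed groups alone the trend was -0.47 and not past the threshold (adjusted p = 0.124), and 4000 ppm minus 500 ppm, a comparison added after seeing the data, was -0.16 ± 0.20 (adjusted p = 0.713, with 2.20% of all genes called). The only other Lgr5 probe set, with a mean signal of 46.5, overlapped its controls at all 3 doses (log2 0.45, 1.02 and 0.01 in dose order), and the mean of both probe sets was not called.

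**Figure D3:**
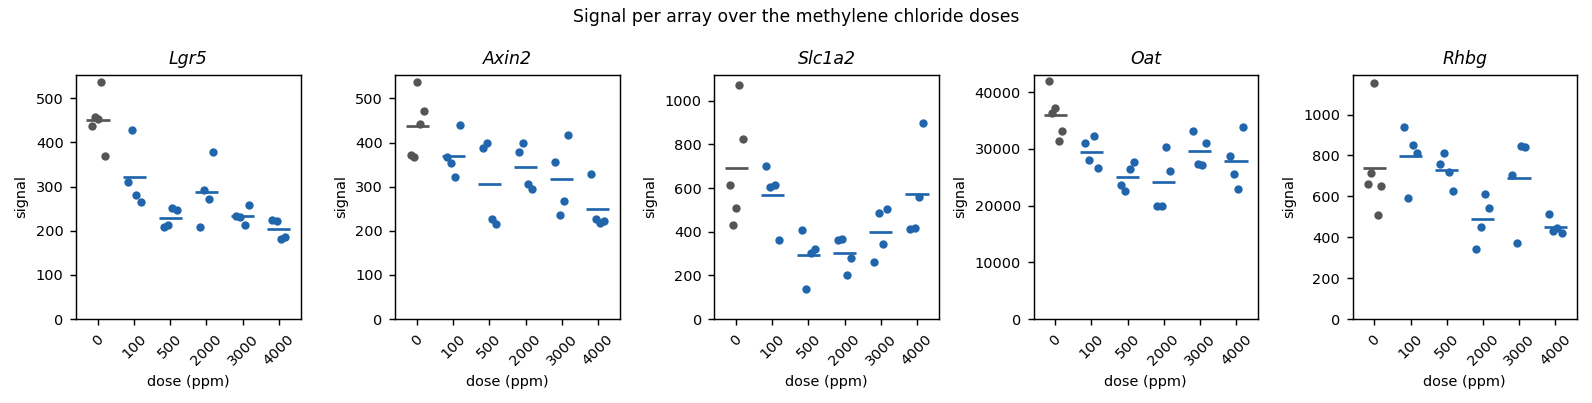
Signal of Lgr5, Axin2, Slc1a2, Oat and Rhbg on each array (points, with the group mean as a line) in air controls (0 ppm, grey) and at 5 methylene chloride doses (blue, equally spaced). Lgr5 lies below all controls at 500, 3000 and 4000 ppm, while Slc1a2 is lowest at 500 and 2000 ppm.

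Axin2, the scaffold that holds beta-catenin for destruction and is itself switched on by it, was not called at any dose. At 4000 ppm it had 329, 226, 217 and 223, against 373, 366, 538, 443 and 471 in air controls, without overlap (log2 -0.78 ± 0.26, adjusted p = 0.0594). Its trend was -0.63 ± 0.22 (adjusted p = 0.0659). Tbx3, a T-box factor, had a trend of -0.54 ± 0.20 (adjusted p = 0.0805) and Rnf43, which removes Wnt receptors, of -0.03 ± 0.23 (0.968). Glul was not below its air controls as Lgr5 was: its changes ran from 0.02 to 0.50 over the 5 doses. Its trend was -0.17 ± 0.10 (adjusted p = 0.341). With the 5 dosed groups alone, however, the Glul trend was -0.46 ± 0.11 (adjusted p = 0.0045), close to that of Lgr5 (-0.47, adjusted p = 0.124). That Glul trend was under the fold set for a call.

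Slc1a2 fell in the middle of the methylene chloride range. It had 408, 139, 304 and 320 at 500 ppm and 362, 366, 201 and 279 at 2000 ppm, against 613, 433, 511, 1073 and 826 in air controls. Neither dose overlapped the controls, and the falls were 1.21 ± 0.32 (log2, adjusted p = 0.0354) and 1.11 ± 0.32 (adjusted p = 0.0486). The 500 ppm call was lost without control replicate 1, 4 or 5 or without 500 ppm replicate 2 or 3 (adjusted p 0.0553 to 0.246). The 2000 ppm call was lost without control replicate 1, 4 or 5 or any of the 4 treated replicates (0.0560 to 0.222). At 100, 3000 and 4000 ppm Slc1a2 differed by -0.24, -0.74 and -0.26 and was not called. A second probe set of nearly the same mean signal (837, against 854) overlapped the controls at both doses, with differences of 0.13 at 500 ppm and -0.33 at 2000 ppm.

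Oat fell at 2000 ppm, with 19987, 19989, 30270 and 26101 there, against 42011, 36291, 37190, 31447 and 33097 in air controls (log2 -0.60 ± 0.15, adjusted p = 0.0181). The groups did not overlap, but the call was lost without control replicate 1 or 3 or treated replicate 1 or 2 (log2 -0.51 to -0.58), and with all air controls of the run pooled. With 2 members called at 2000 ppm the share of all genes was 0.857%. Rhbg had a trend of -0.65 ± 0.19 (adjusted p = 0.0167). It was lost without control replicate 3 (-0.53, 0.0766) or 3000 ppm replicate 2 (-0.53, 0.0596), and no single dose was called.

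Of the other Wnt genes, 2 of 9 receptors fell with the methylene chloride trend, the frizzled receptors Fzd8 (log2 -1.06 ± 0.18, adjusted p = 7.70e-06) and Fzd7 (-0.81 ± 0.17, 3.49e-04). Of 12 transducers 1 fell, the transcription factor Tcf7l1 (-0.72 ± 0.17, 0.00182). By limma 0 of 5 ligand genes and 0 of 8 other targets had a trend past the threshold, with 1 of each at an unadjusted p under 0.05. At 3000 ppm, however, the ligand gene Wnt2 fell (-0.65 ± 0.19, limma adjusted p = 0.0260). The transducer Ctnnb1, which encodes beta-catenin, fell there as well (-0.68 ± 0.10, 7.32e-07), and neither gene had a called trend. The ornithine decarboxylase gene Odc1 rose with the trend (0.61 ± 0.16, 0.00862) and at 500 ppm (0.76 ± 0.19, 0.0255), 2000 ppm (0.93 ± 0.19, 0.00249), 3000 ppm (0.64 ± 0.19, 0.0286) and 4000 ppm (0.80 ± 0.19, 0.00354), each time as the only gene of the glutamine and ornithine list. Of 9 periportal genes 1 rose, Hsd17b13 (0.66 ± 0.20, 0.0218), and 1 fell, the gluconeogenic G6pc (-0.88 ± 0.20, 9.45e-04).

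Endothelial markers moved with Lgr5 at the high doses. Their summed signal was 7682 to 8710 at 500 ppm, 6532 to 6885 at 3000 ppm and 6169 to 7378 at 4000 ppm, against 8308 to 9293 in air controls, and of the 7 markers Stab2 fell with the trend (log2 -0.65 ± 0.08, adjusted p = 1.51e-09). Of 6 stellate cell markers 2 fell with the trend, Reln (-0.95 ± 0.12, 4.51e-09) and Pdgfrb (-0.75 ± 0.20, 0.00613). The part of these markers in the Lgr5 result was not tested. RNA integrity was 9.1 to 9.3 at 500 and 3000 ppm and 9.1 to 9.2 at 4000 ppm, against 8.9 to 9.1 in air controls, and with it as a covariate the 3 Lgr5 calls held (adjusted p = 0.0392, 0.0273 and 0.00176 in dose order), while the Oat call at 2000 ppm (0.0764) and the Rhbg trend (0.145) did not.

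Lgr5 and Rhbg were called at the lowest naphthalene doses and not at the highest. RNA integrity moved with this pattern, and with it as a covariate none of these calls held, as given below. Lgr5 had 595, 556, 408, 380 and 432 in air controls, 268, 371, 284 and 290 at 0.5 ppm and 372, 307, 241 and 157 at 3 ppm. It had 330, 296, 284 and 303 at 10 ppm, 407, 494, 461 and 374 at 20 ppm and 461, 615, 421 and 461 at 30 ppm. No liver at 0.5, 3 or 10 ppm reached the lowest control, while those at 20 and 30 ppm overlapped the controls. Lgr5 fell by 0.61 ± 0.19 (log2) at 0.5 ppm (adjusted p = 0.0387) and by 0.82 ± 0.19 at 3 ppm (adjusted p = 0.00304). At 10, 20 and 30 ppm the values were -0.60 (adjusted p = 0.0818), -0.11 (0.938) and 0.05 (0.999).

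Rhbg went the other way. It had 518, 538, 591, 585 and 621 in air controls, 852, 1296, 900 and 732 at 0.5 ppm and 858, 911, 859 and 1170 at 3 ppm. Both low doses lay wholly above the controls, with rises of 0.68 ± 0.22 (log2, adjusted p = 0.0474) and 0.71 ± 0.22 (adjusted p = 0.0280). At 10, 20 and 30 ppm the differences were -0.09, 0.05 and -0.16. With 2 members called at each of the 2 doses, the share of all genes was 2.49% at 0.5 ppm and 4.14% at 3 ppm, against 0.687%, 0.132% and 0.00% at 10, 20 and 30 ppm.

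The Lgr5 call at 3 ppm held without any 1 array. The other 3 did not: Lgr5 at 0.5 ppm was lost without control replicate 1 or 2 or treated replicate 1, 3 or 4 (adjusted p 0.0861 to 0.160), and Rhbg at 0.5 ppm without control replicate 1, 2, 3 or 4 or treated replicate 1, 2 or 3 (0.0587 to 0.271). Rhbg at 3 ppm was lost without control replicate 1 or 2 or treated replicate 2, 3 or 4 (0.0541 to 0.106). With the air controls of run D pooled, Lgr5 at 3 ppm held (-0.61, adjusted p = 0.00491), while Lgr5 at 0.5 ppm (-0.40, 0.0999) and Rhbg at 0.5 ppm (0.51) and 3 ppm (0.54) were not called, both Rhbg values being under the fold of 1.5. In comparisons added after seeing the data, 3 ppm minus 30 ppm was -0.87 ± 0.20 for Lgr5 (adjusted p = 0.00366) and 0.87 ± 0.23 for Rhbg (0.0138), with 3.04% of all genes called. The first was lost without 3 ppm replicate 4 (adjusted p = 0.0553) and the second without that array (0.0615) or 30 ppm replicate 1 (0.0598). With the RNA integrity number as a covariate neither held (-0.73, adjusted p = 0.148 for Lgr5, and 0.70, 0.243 for Rhbg), nor did they with the 2 groups fitted alone (0.131 and 0.0659).

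Glul had a smaller difference in the same groups. It had 16513, 9530, 14344 and 14987 at 0.5 ppm and 13253, 16192, 12158 and 16452 at 3 ppm, against 18498, 17797, 21152, 18339 and 20571 in air controls. Neither dose overlapped the controls, and the adjusted p was 0.00499 and 0.0158, but the differences of -0.50 ± 0.12 and -0.42 ± 0.12 (log2) were under the fold of 1.5. Oat was at its highest group means of the whole series at 0.5 ppm (45250) and 20 ppm (46283), against 30507 in air controls. Its differences were 0.55 ± 0.15 (adjusted p = 0.0155) and 0.61 ± 0.15 (0.0521), and it was not called.

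**Figure D4:**
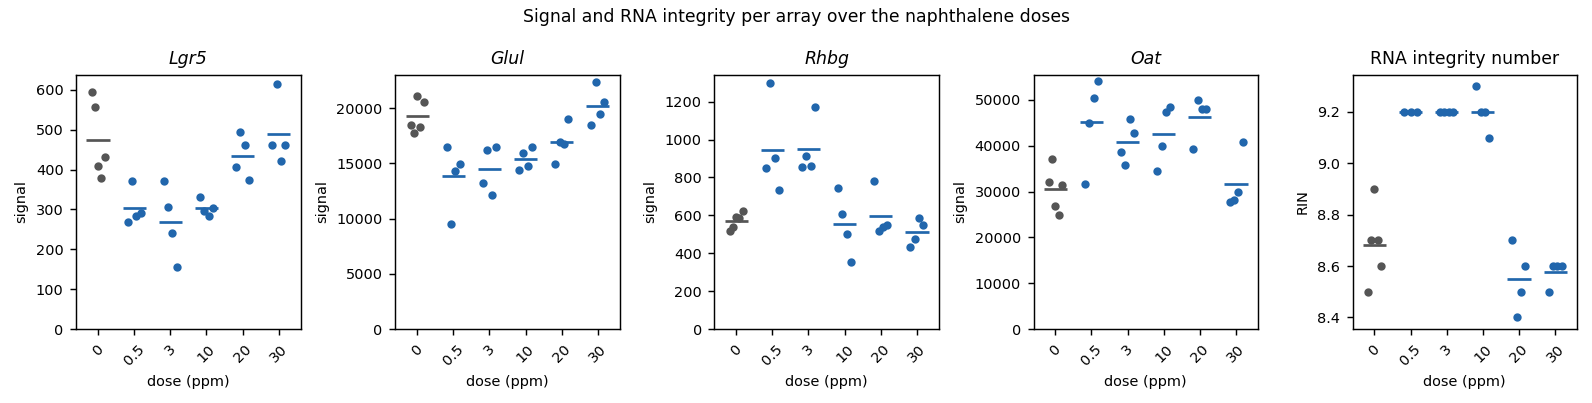
Signal of Lgr5, Glul, Rhbg and Oat, and the RNA integrity number, on each array (points, with the group mean as a line) in air controls (0 ppm, grey) and at 5 naphthalene doses (blue, equally spaced). Lgr5 is low and the RNA integrity number high at 0.5, 3 and 10 ppm, and both are near the controls at 20 and 30 ppm.

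RNA integrity moved with the naphthalene pattern. It was 9.2 in every liver with a value at 0.5 and 3 ppm and 9.1 to 9.3 at 10 ppm, against 8.5 to 8.9 in air controls, and it was 8.4 to 8.7 at 20 ppm and 8.5 to 8.6 at 30 ppm. With the integrity number as a covariate, which left out the 12 arrays of run D without a value, Lgr5 was -0.46 at 0.5 ppm (adjusted p = 0.393) and -0.70 at 3 ppm (0.0878). Rhbg was 0.55 (0.348) and 0.57 (0.235), so that none of the 4 calls held. Naphthalene gave no member trend in limma, with 1 member at an unadjusted p under 0.05 and 0.0934% of all genes called. With the dosed groups alone the trend was called for Lgr5 (log2 0.81, adjusted p = 9.61e-04) and Rhbg (-0.94, 0.00103).

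Among the other lists, Znrf3, a ubiquitin ligase that like Rnf43 removes Wnt receptors, fell at 0.5 ppm (-0.68 ± 0.13, adjusted p = 6.91e-04) and at 3 ppm (-0.65 ± 0.13, 9.82e-04), as 1 of 8 other Wnt targets. At 3 ppm 1 of 5 ligand genes fell, the Wnt export protein gene Wls (-0.63 ± 0.19, 0.0250), and 1 of 12 transducers rose, Gsk3b (0.81 ± 0.27, 0.0443). Gsk3b rose more at 20 ppm (1.39 ± 0.27, limma adjusted p = 0.00238), where Lgr5 and Rhbg were not called. Periportal and hepatocyte genes rose: Ass1, of the urea cycle, by 1.39 ± 0.37 at 0.5 ppm (0.0131) and 1.11 ± 0.37 at 3 ppm (0.0404), and G6pc by 0.87 ± 0.23 (0.0129) and 0.69 ± 0.23 (0.0435), which made 2 of 9 periportal genes. The alanine aminotransferase Gpt rose by 0.89 ± 0.17 (6.72e-04) and 0.72 ± 0.17 (0.00517), and also at 10 ppm by 0.62 ± 0.17 (0.0471). At 0.5 ppm Prodh, 1 of 10 other pericentral genes, rose by 0.68 ± 0.22 (0.0470), and of 5 hepatocyte markers Alb rose by 0.67 ± 0.17 (0.00908) and Ttr by 0.61 ± 0.16 (0.0110). At 3 ppm the duct marker Epcam (-1.50 ± 0.35, 0.00419) and the endothelial marker Lyve1 (-0.97 ± 0.26, 0.0119) fell, each the only one of its list, of 4 and 7 genes. The summed signal of the 5 hepatocyte markers was 324880 to 503310 at 0.5 ppm and 375365 to 423686 at 3 ppm, against 257811 to 319019 in air controls, without overlap. Its part in the Lgr5 and Rhbg results was not tested.

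1,4-Dichlorobenzene raised Rhbg over its dose range. Rhbg had 563, 524, 786, 840 and 460 in corn oil controls, 553, 491, 854 and 582 at 100 mg/kg and 918, 826, 1182 and 1031 at 300 mg/kg. It had 823, 1065, 887 and 1231 at 400 mg/kg, 805, 806, 1344 and 1154 at 500 mg/kg and 1282, 964, 1169 and 1191 at 600 mg/kg. All livers at 600 mg/kg were above all controls, and the ranges of the lower doses overlapped them. The trend was 0.93 ± 0.19 (log2, limma adjusted p = 5.64e-04), with 1.12% of all genes called, and it held without any 1 array and with the dosed groups alone (0.73, adjusted p = 0.0490).

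At single doses Rhbg rose at 600 mg/kg (0.87 ± 0.22, adjusted p = 0.0193, with 0.704% of all genes called). That call was lost without control replicate 1, 2 or 5 or treated replicate 1, 3 or 4 (adjusted p 0.0572 to 0.0991). The differences were -0.03, 0.65, 0.66 and 0.68 at 100, 300, 400 and 500 mg/kg. Lgr5 had 174, 261, 208 and 313 at 500 mg/kg, against 521, 356, 567, 372 and 329 in controls, without overlap (log2 -0.80 ± 0.19, adjusted p = 0.00702, with 0.803% of all genes called). It was lost without control replicate 3 or treated replicate 1 or 3 (adjusted p 0.0515 to 0.0982), with a covariate for the 3' over 5' signal of Gapdh (-0.77, 0.0631), with values as deposited (0.0596) and with the 2 groups fitted alone (0.267). At 100 and 400 mg/kg Lgr5 also lay below all controls but was not called (log2 -0.51, adjusted p = 0.367, and -0.58, 0.129). At 600 mg/kg Lgr5 was in the control range with 402, 461, 373 and 355 (log2 -0.08, adjusted p = 0.926). The difference between the 2 doses, added after seeing the data, was 0.72 ± 0.20 (adjusted p = 0.295, with 0.0275% of all genes called) and was not called. This Gapdh ratio, a measure of RNA quality, was below all controls at the 3 doses where Lgr5 was, and within their range at 600 mg/kg. It was also below all controls at 300 mg/kg, where 0 members, Lgr5 included, lay apart from the controls. The ratio was 0.667 to 0.711 at 100 mg/kg, 0.694 to 0.716 at 300 mg/kg, 0.671 to 0.712 at 400 mg/kg, 0.666 to 0.702 at 500 mg/kg and 0.778 to 0.824 at 600 mg/kg, against 0.755 to 0.919 in controls. Glul differed by 0.20, 0.21, 0.32, 0.15 and -0.01 over the 5 doses and Oat had a trend of -0.42 ± 0.13 (adjusted p = 0.0526). Among the list genes at 500 mg/kg the Wnt target Notum fell (-0.87 ± 0.17, limma adjusted p = 4.28e-04) and the pericentral Cyp1a2 rose (0.81 ± 0.13, 3.92e-06). Cyp1a2 was also called higher at 300 mg/kg (0.80 ± 0.13), 400 mg/kg (0.68 ± 0.13) and 600 mg/kg (0.66 ± 0.13, 4.13e-04). Its trend was called as well (0.65 ± 0.11, 9.46e-06).

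**Figure D5:**
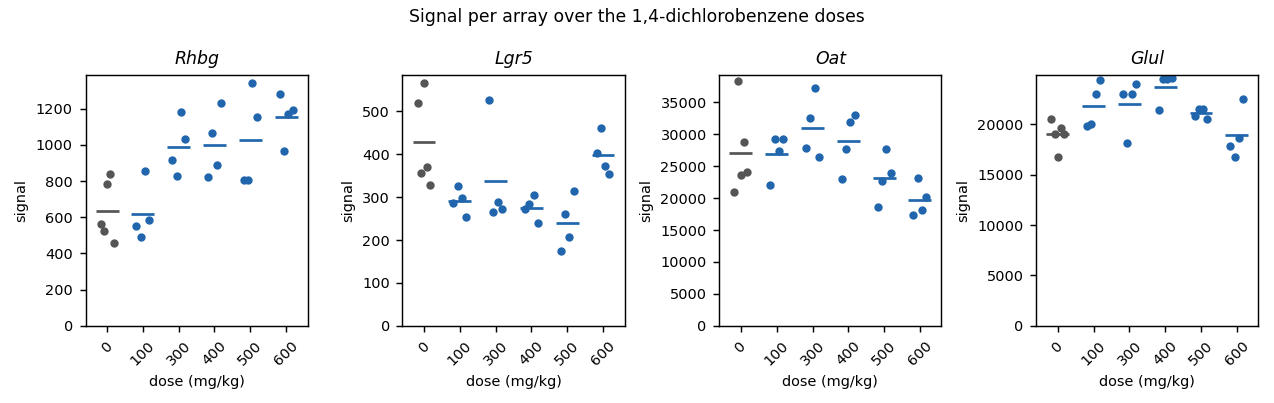
Signal of Rhbg, Lgr5, Oat and Glul on each array (points, with the group mean as a line) in corn oil controls (0 mg/kg, grey) and at 5 doses of 1,4-dichlorobenzene (blue, equally spaced). Rhbg lies above all controls at 600 mg/kg, and Lgr5 lies below all controls at 100, 400 and 500 mg/kg and within their range at 600 mg/kg.

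Benzene lacks the chlorine atoms of 1,4-dichlorobenzene, and both were given at 100 mg/kg in corn oil. Subtracting the benzene effect from the 1,4-dichlorobenzene effect gave a difference that was called for 0 of 10 members, with 0 members at an unadjusted p under 0.05 and 0.00% of all genes called (limma). The differences of effects were 0.23 ± 0.20 for Glul, 0.84 ± 0.48 for Slc1a2, 0.28 ± 0.28 for Oat, -0.27 ± 0.39 for Rhbg and -0.43 ± 0.31 for Lgr5 (log2 ± SE). The 2 chemicals were in different runs, each with its own controls.

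1,2,3-Trichloropropane lowered Rhbg at 40 mg/kg. It had 419, 361, 299 and 360 there, against 518, 525, 995, 837 and 596 in corn oil controls, without overlap (log2 -0.88 ± 0.22, adjusted p = 0.0163, with 1.34% of all genes called). The call was lost without control replicate 3 or 4 or treated replicate 3 (adjusted p 0.0697 to 0.112), and at 60 mg/kg Rhbg differed by -0.14 ± 0.22. Slc13a3 had a falling trend (-0.67 ± 0.18, adjusted p = 0.0283, with 0.577% of all genes called). At 60 mg/kg it had 888, 1023, 956 and 1269, against 1524, 1313, 2700, 1452 and 1925 in controls, without overlap, and was not called (-0.74 ± 0.20, adjusted p = 0.0644). The trend was lost without control replicate 3 or 5, 2 mg/kg replicate 1, 40 mg/kg replicate 3 or 60 mg/kg replicate 1, 2 or 3 (adjusted p 0.0553 to 0.113), and with the dosed groups alone (log2 -0.55, adjusted p = 0.230) or the RNA integrity number as a covariate (-0.64, 0.0645). Kupffer cell markers moved with it: of 5, 0 had a trend called by limma and 3 had an unadjusted p under 0.05, with a median of -0.41, and their summed signal was 11701 to 15499 at 60 mg/kg, against 13382 to 22985 in controls. Their part in the Slc13a3 trend was not tested. With the dosed groups alone Lgr5 had a called trend (-0.77, 0.00859).

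Propylene glycol mono-t-butyl ether gave 0 member trends in limma, with 2 of 10 members at an unadjusted p under 0.05 for the trend and 0.253% of all genes called. The steepest trend was that of Tbx3 (-0.60 ± 0.19, adjusted p = 0.195).

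1,5-Naphthalenediamine and N-(1-naphthyl)ethylenediamine dihydrochloride both carry a naphthalene ring with amino nitrogens, and both were given at 2000 ppm in chow. In 1,5-naphthalenediamine both amino groups sit on the ring, whereas the other compound has an ethylenediamine chain on the ring. With the pair of benzene and 1,4-dichlorobenzene, 2 pairs of related chemicals were compared, and this was the pair measured within 1 run. Slc1a2 had 885, 905 and 710 with 1,5-naphthalenediamine, against 1582, 1946 and 2045 with N-(1-naphthyl)ethylenediamine dihydrochloride. The 2 groups did not overlap and lay on either side of the chow controls, at 972, 1491 and 1061. The difference was -1.14 ± 0.24 (log2, limma adjusted p = 0.0349, with 0.923% of all genes called). Leaving out any 1 of the 6 arrays ended the call (adjusted p 0.0604 to 0.147). A second Slc1a2 probe set of similar signal differed by -0.15 and overlapped. RNA integrity was 8.8 to 8.9 with 1,5-naphthalenediamine and 7.7 to 8.1 with the other compound, and with it as a covariate the difference was -0.72 (adjusted p = 0.450). With the 3' over 5' signal of Gapdh in its place it was -0.82 (0.459).

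The difference for the other members ranged from -0.72 ± 0.20 for Slc13a3 (adjusted p = 0.125) to 0.08 ± 0.25 for Rhbg. Against chow controls 1,5-naphthalenediamine lowered Slc13a3, with 722, 640 and 674 against 1143, 1721 and 1053 (log2 -0.89 ± 0.20, adjusted p = 0.0265, with 3.40% of all genes called). That call was lost without control replicate 2 or treated replicate 2 or 3 (adjusted p 0.0711 to 0.0894), and with values as deposited (0.0517) or the 2 groups fitted alone (0.156). A second Slc13a3 probe set differed by -0.77 without overlap. Markers of other cells moved with it. The summed Kupffer cell signal was 8760 to 11841 with 1,5-naphthalenediamine, against 13287 to 16498 in chow controls, with 0 of 5 markers called by limma and 4 at an unadjusted p under 0.05. The endothelial sum was 5249 to 6721, against 7758 to 9623 in controls, with 1 of 7 markers called, Stab2 (-0.90 ± 0.19, adjusted p = 0.0203). Of 5 leukocyte markers Ptprc fell (-0.82 ± 0.16, 0.0163), while the list's median was 0.47. The part of these markers in the Slc13a3 result was not tested. All 10 members were lower than in controls with 1,5-naphthalenediamine, with a median of -0.21, against -0.12 over all genes. Of the other pericentral genes Cyp1a2 (1.24 ± 0.15, limma adjusted p = 5.79e-04), Cldn2 (0.88 ± 0.17, 0.0152) and Nr1i3 (0.64 ± 0.13, 0.0178) rose. The Cyp1a2 rise was not particular to this compound. It also rose with N-(1-naphthyl)ethylenediamine dihydrochloride (1.35 ± 0.15, 0.00637) and pentachloronitrobenzene (0.91 ± 0.15, 0.0207) of the same run. Of the other Wnt genes Ccnd1 (-1.51 ± 0.27, 0.00852), Lef1 (-1.57 ± 0.41, 0.0491) and Fzd8 (-0.78 ± 0.20, 0.0437) fell.

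4-Nitroanthranilic acid lowered Lect2, with 5975, 6014, 5609 and 3612 against 8343, 8391, 8845 and 8845 in chow controls. The groups did not overlap (log2 -0.73 ± 0.15, adjusted p = 0.0276, with 0.110% of all genes called). Leaving out any 1 of the 8 arrays ended the call (adjusted p 0.0511 to 0.169), and so did a fit without the run code block (0.0985), the RNA integrity number as a covariate (-0.71, 0.0515) or the 2 groups fitted alone (0.275). The summed Kupffer cell signal was 6675 to 10684 with 4-nitroanthranilic acid, against 10977 to 16915 in controls, without overlap, with 0 of 5 markers called by limma and 0 at an unadjusted p under 0.05. Its part in the Lect2 result was not tested.

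The highest Glul changes upward missed the threshold. With tetrafluoroethylene Glul had 20979, 21709, 20392 and 16732, against 15069, 10900, 11850 and 13085 in air controls, without overlap (log2 0.65 ± 0.17, adjusted p = 0.122). With the compound labelled tetrafluororethane it had 18432, 21766, 20616 and 12599 against the same controls (0.51 ± 0.17, adjusted p = 0.446), at another dose.

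Over all 46 groups the lists around the members were called as follows. Over all genes 0.751% of the tests were called. The 8 other Wnt targets had 1 call higher and 9 lower in 368 tests (2.72%). The 9 receptors had 1 and 5 in 414 tests (1.45%), the 12 transducers 3 and 5 in 552 (1.45%), and the 5 ligands 0 and 3 in 230 (1.30%). The 10 other pericentral genes had 11 calls higher and 0 lower in 460 tests (2.39%), the 9 periportal genes 10 and 2 in 414 (2.90%), and the 10 glutamine and ornithine genes 9 and 5 in 460 (3.04%). The 7 endothelial markers had 0 and 5 in 322 tests (1.55%). Single genes made up most of some of these counts. Cyp1a2 gave most of the rises of the other pericentral genes, and Ccnd1 most of the falls of the other Wnt targets. Odc1 and Gpt together gave most of the rises of the glutamine and ornithine genes. The lists too were chosen with earlier results of these data known. Groups that share controls are linked, so the tests of these lists are not independent.

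The members were also set against each other by their deviations from the group means over the 242 arrays, on the log2 scale. The points share array quality and scaling, and the correlations are given as a description. Tbx3 and Rnf43 had the highest (r = 0.52), followed by Axin2 with Tbx3 (0.45) and Axin2 with Rnf43 (0.40), and these are the 3 members without a call in a treated group. In the 59 control arrays alone these values were 0.44, 0.30 and 0.26. Slc1a2 and Lect2 had 0.39, and Lect2 and Oat 0.38. Glul was only loosely tied to the other members, with 0.29 for Tbx3, 0.23 for Slc1a2 and 0.23 for Oat, and Oat ran against Slc13a3 (-0.36).

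The genes with the highest r to Glul were Elovl2 (0.41), Eva1a (0.40), Acot1 (0.39), Cyp2c37 (0.39) and Kbtbd13 (0.38). Elovl2 lengthens fatty acids, Acot1 is an acyl-CoA thioesterase and Cyp2c37 is a cytochrome P450. Slc1a2 lay nearest to the coagulation factor F5 (0.72), the bicarbonate carrier Slc4a4 (0.70), Gtf2h1 (0.70), Dlg1 (0.69) and Iigp1 (0.68). Oat lay nearest to Hgd, an enzyme of tyrosine breakdown (0.66), Cyp2b9 (0.65), the corticosteroid-binding globulin gene Serpina6 (0.64), Lhpp (0.64) and Cyp2c29 (0.63). By the same measure, looked up after the values were seen, Slc13a3 lay nearest to Lgals3 (0.68) and Laptm5 (0.68), which are known from macrophages and other leukocytes. Axin2 lay nearest to Tbx3 and then, among named genes, to the receptor Fzd7 (0.42).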

How the data were processed

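Linear probe set intensities were deposited for 242 arrays, and the authors' software was GCOS 1.0 per the submitters' processing notes. Further steps are not given in the sources used here. The deposited intensities had a mean of 500, after trimming 2% at each end, on 240 arrays. The other 2, vanadium pentoxide replicate 4 (148) and 1,5-naphthalenediamine replicate 2 (84.5), were multiplied to 500. Of 45101 probe sets 34945 had 1 gene symbol in GEO's platform annotation and gave 18193 genes, each by its brightest probe set. The median signal per array was 69.4 to 137. Log2 of the signal plus 17.3 (the median 20th percentile) was tested, so folds of dim genes are understated.

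limma 3.58.1 in R 4.3.3 was fitted per run to all its arrays, with 1 mean per group, the run code as a block in run A, and eBayes. Tests were two-sided, and ± is the SE of the coefficient unless SD is stated. P-values were Benjamini-Hochberg adjusted over 18193 genes of a comparison. Trends used equally spaced ranks of control and doses. There were 46 treated comparisons, 5 trends, 2 differences and 5 control pairs, and 3 differences between doses were added after seeing the data. Treated groups share controls, so their comparisons are linked. Labels give each array its own animal. The procedure was tested on simulated data.

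The members and gene lists were chosen with earlier results of these data known. Named were the 10 members throughout, the called list genes (up to 4 per list by adjusted p) where at least 2 members were called, and the 5 genes nearest to Glul, Slc1a2 and Oat. List genes named where fewer members were called were picked after the values were seen. Promoter windows came from RefSeq (GRCm38.p6). Python 3.11.15 with pandas 2.3.3, numpy 2.4.6 and matplotlib 3.10.9 made tables and plots. Alternatives were quantile normalisation, values as deposited, leaving out dim genes, pseudocounts of 4.33 and 69.3, the mean of a gene's probe sets, the Gapdh 3' to 5' ratio or the RNA integrity number as a covariate, pooled controls, other trend scales, fits of the compared groups alone, no run code block, and leaving out each array.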

Additional observations from a re-analysis of the deposited data

Results flagged for a closer look

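Each group of 4 or 5 mice behind a member call was searched for a value standing apart, by Dixon's test at the 95% level, which chance passes about 1 time in 20. Of 31 sets of values 1 passed. This was Lect2 in 4-nitroanthranilic acid replicate 4, at 3612, against 5609 to 6014 in the other 3 mice of that group and 8343 to 8845 in chow controls. Without it the difference was -0.61 (log2) and was not called (limma adjusted p = 0.132).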

How the results depend on the processing

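The count of 19 member calls in treated groups was 9 with values as deposited, 29 without dim genes, 11 with the mean of all probe sets, 5 with only the compared groups fitted and 11 with the RNA integrity number as a covariate (added after seeing the data). It was 16 to 22 when 1 array was left out. The 2 methylene chloride trends were 1 under quantile normalisation, values as deposited, the mean of all probe sets, pooled controls and the dosed groups alone, and 1 to 3 without 1 array. With the integrity covariate they numbered 2, with Axin2 (-0.87, adjusted p = 0.0348) in place of Rhbg. The 1 trend of 1,2,3-trichloropropane was 0 with values as deposited, the mean of all probe sets, pooled controls or the integrity covariate, and 0 to 1 without 1 array. With the dosed groups alone it was also 1, but another gene (Lgr5 in place of Slc13a3). Naphthalene had 0 trends and 2 with the dosed groups alone. The 1 call between the 2 naphthalene amines was 2 without dim genes and 0 with values as deposited, the mean of all probe sets, the Gapdh or integrity covariate, only the groups compared or any 1 array left out. Other counts stayed within 1.5 times of the reported ones.

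Of 26 calls (added comparisons included), 9 held in every leave-one-out fit. Glul with malathion and the Rhbg trend with 1,4-dichlorobenzene held under all alternatives run. Quantile normalisation kept 23, a pseudocount of 4.33 kept 26, 1 of 69.3 kept 25 and the Gapdh covariate 24. Values as deposited kept 12, where the unscaled arrays widen the spread of runs C and D. Fits of only the compared groups kept 4 of 22, with fewer arrays to estimate the spread. The mean of all probe sets kept 13, and there Lgr5 at 3000 ppm methylene chloride turned to 0.0628. The causes of these changes were not tested. No paired analysis was possible because replicates were numbered in accession order.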
